A study of Homo sapiens with 12 samples.

Results

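The RNA levels of 10 metabolic and redox genes, each described as a direct target of the transcription factor p53, were followed through 12 RNA-seq libraries. They were chosen by name, with earlier results of these data known: TIGAR, FDXR, GLS2, TP53I3, ALDH4A1, ACER2, SCO2, FUCA1, PRODH and PANK1. All 10 were found among the 40295 genes of the gene count table, with a single Ensembl identifier for each symbol. Another identifier, without a symbol, holds a further SCO2 transcript, with 24 to 50 counts in TOV-112D and 0 to 13 in Saos-2. That identifier was left out of SCO2. All 10 genes had enough counts to be tested in both cell lines, among 15081 genes tested in Saos-2 and 14989 in TOV-112D. TOV-112D is a human ovarian cancer line that carries the p53 missense change R175H, and it was treated for 3 h with the solvent DMSO (2 libraries), with 10 µM UCI-1001 (2 libraries) or with UCI-1014 (2 libraries). UCI-1001 is a pyrimidine trione, and UCI-1014 is an analog in which its nitro group is replaced by a methoxy group. The dose behind the UCI-1014 libraries is not given in the sources used here. Saos-2 is a human osteosarcoma line without p53, and the parental p53-null cells (3 libraries) were set against cells with a lentiviral, doxycycline-inducible wild-type p53 gene, called p53-WT (3 libraries). Both Saos-2 groups carry a label of 16 h of induction. The Saos-2 pair therefore differs from the compound libraries in cell line and time as well as in p53. No source says whether libraries of a group came from separate cultures, so p-values measure only the spread between these libraries, which may be technical.

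p53 is best known for arresting and killing damaged cells, but it also switches on enzymes that reshape fuel use and the handling of reactive oxygen. It does so by binding DNA as a tetramer at paired decamer motifs near or inside its target genes. The hotspot change R175H unfolds the DNA-binding domain, so cells that carry it are expected to lack this direct activity. The genes described here fall into groups by role. TIGAR lowers fructose-2,6-bisphosphate and steers glucose into the pentose phosphate pathway, which supplies NADPH. GLS2 is the liver-type mitochondrial glutaminase, PRODH is proline dehydrogenase, and ALDH4A1 completes the conversion of proline to glutamate. FDXR passes electrons from NADPH to the mitochondrial ferredoxins, SCO2 is a copper chaperone for assembly of cytochrome c oxidase, and TP53I3 (PIG3) is a quinone oxidoreductase. ACER2 is the alkaline ceramidase of the Golgi, FUCA1 is the lysosomal alpha-L-fucosidase, and PANK1 is a pantothenate kinase, the controlling step of coenzyme A synthesis.

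The libraries held 17762027 to 20717898 counts in TOV-112D and 19593655 to 24629558 in Saos-2. The cell cycle inhibitor CDKN1A, a standard p53 target, changed by a log2 fold of 7.01 ± 0.18 (SE) with p53-WT, 1.64 ± 0.09 with UCI-1001 and 3.54 ± 0.08 with UCI-1014. MDM2, the ubiquitin ligase that p53 induces against itself, stood at 4.44 ± 0.20, 0.00 ± 0.04 (adjusted p = 0.995) and 0.06 ± 0.04 (adjusted p = 0.316) in the same comparisons. The first library of each Saos-2 group stood apart from the rest of its group: a chi-square test of the counts gave 22.1 to 37.0 per degree of freedom for pairs that include it, 3.31 to 4.07 for the remaining Saos-2 pairs and 2.29 to 3.81 for TOV-112D pairs. Of 8 markers of ovarian carcinoma, 3 reached 1 CPM (counts set to a common library size within each cell line) in TOV-112D, and PAX8, MUC16, KRT7, KRT8 and KRT18 did not. Of 8 osteoblast markers, 4 reached 1 CPM in Saos-2, and SP7, ALPL, IBSP and BGLAP did not. Several markers ran against the labels: the ovarian list reached 1 CPM for 5 of 8 genes in p53-null Saos-2 cells, with KRT18 at 539 CPM and KRT8 at 203 CPM, and the osteoblast gene COL1A1 stood at 48.3 CPM in DMSO-treated TOV-112D against 1.58 CPM in p53-null Saos-2.

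On GRCh38 the genes lie at chr12:4307763-4360028 (TIGAR), chr17:74862497-74873031 (FDXR), chr12:56470944-56488414 (GLS2), chr2:24077433-24085861 (TP53I3), chr1:18871430-18902724 (ALDH4A1), chr9:19409009-19452505 (ACER2), chr22:50523568-50526461 (SCO2), chr1:23845077-23868290 (FUCA1), chr22:18912777-18936553 (PRODH) and chr10:89579497-89645242 (PANK1). The SCO2 position is that of the GENCODE 44 gene, which unites the transcripts of both identifiers. TIGAR and ACER2 are on the plus strand and the other 8 on the minus strand. DNA around the starts of the genes was searched for p53 motifs because all 10 genes are described as direct targets. RefSeq promoter windows of 300 bases on GRCh38.p14 (250 bases before the start and 50 after it) were at hand for 8 of the 10 genes, 11 windows in all, and none for SCO2 or PRODH. The p53 decamer consensus, searched on both strands, was found in 2 of them, a window of FDXR and a window of PANK1, and 6.63% of all 35116 windows hold it. At least 3 tandem copies of TGNCC, the repeat type known for TP53I3, were found in none of the 11 windows and in 0.0626% of all windows. The only TP53I3 window surrounds its canonical start. It does not reach the start of TP53I3-202, 381 bases upstream, the transcript that held most of the TP53I3 signal. The DNA at that start was therefore not searched for the repeat. The 2 windows are shown with the decamer in capitals, followed by the window around the start of PANK1-203, the PANK1 transcript with the highest mean TPM in every group, which holds no match.
FDXR, chr17:74872945-74873244, minus strand: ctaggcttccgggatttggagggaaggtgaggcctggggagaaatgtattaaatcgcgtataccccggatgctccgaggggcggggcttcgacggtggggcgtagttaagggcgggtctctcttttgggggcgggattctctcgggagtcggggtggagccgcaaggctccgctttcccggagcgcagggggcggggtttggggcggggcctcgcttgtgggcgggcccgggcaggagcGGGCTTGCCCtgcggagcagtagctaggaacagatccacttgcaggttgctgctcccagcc
PANK1 canonical start, chr10:89645193-89645492, minus strand: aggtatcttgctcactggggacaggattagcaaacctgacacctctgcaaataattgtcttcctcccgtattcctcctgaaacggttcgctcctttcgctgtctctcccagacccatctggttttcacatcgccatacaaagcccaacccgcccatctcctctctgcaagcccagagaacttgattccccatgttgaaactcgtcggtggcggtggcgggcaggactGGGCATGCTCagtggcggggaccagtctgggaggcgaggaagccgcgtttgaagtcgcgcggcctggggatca
PANK1 start of PANK1-203, chr10:89643867-89644166, minus strand: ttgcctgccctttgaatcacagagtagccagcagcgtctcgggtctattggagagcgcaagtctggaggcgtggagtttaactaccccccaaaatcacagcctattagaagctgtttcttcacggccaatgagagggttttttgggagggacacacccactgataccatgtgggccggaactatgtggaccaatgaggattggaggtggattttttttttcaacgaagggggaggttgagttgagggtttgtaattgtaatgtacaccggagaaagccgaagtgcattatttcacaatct

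Full p53 sites join a pair of decamers. A wider search, added after the promoter windows had been seen, looked for 20-base paired sites with no spacer within 2500 bases of the annotated start, allowing 2 mismatches outside the fixed C and G of each decamer. It found a site at 3 of the 10 genes, against 755 of 19970 protein-coding starts (3.78%). Every site found at these genes had 2 mismatches, the most that was allowed. The sites are shown in the direction of the gene on GRCh38, with the middle 4 bases of each decamer, from the fixed C to the fixed G, in capitals.
GLS2, chr12:56488113-56488132, exon 1, 38 bases after the start: aggCTTGctggggCATGcgc
ACER2, chr9:19409522-19409541, intron 1, 523 bases after the start: gaaCCTGccgggaCAAGtct
PANK1, chr10:89645256-89645275, 24 bases before the canonical start: gggCAGGactgggCATGctc
PANK1, chr10:89647250-89647269, 2018 bases before the canonical start: aggCAAGcccaggCATGgtg
A match is a description of the letters only. No binding was measured in these libraries.

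**Figure D1:**
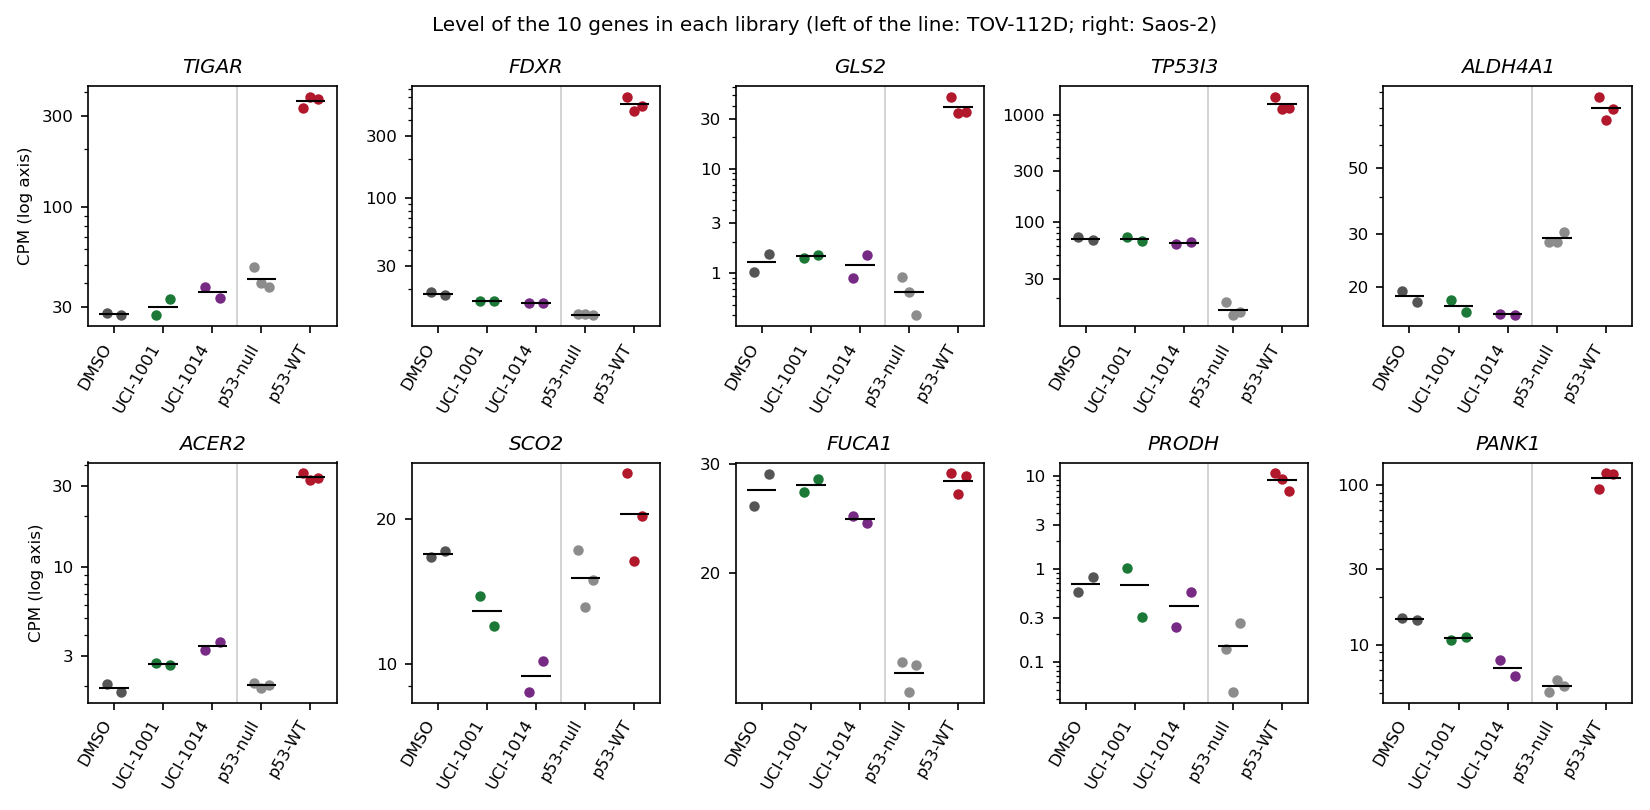
Each panel plots 1 gene, with its CPM in every library on a log axis; the horizontal lines are group means, and each panel has its own range. With p53-WT all 10 genes have a higher mean than in p53-null cells, and SCO2 is the only gene whose Saos-2 groups overlap. In TOV-112D, the SCO2 and PANK1 libraries lie lower from DMSO through UCI-1001 to UCI-1014, and those of ACER2 lie higher.

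The response to wild-type p53 in Saos-2 was examined first. All 10 genes rose, where 65.0% of all tested genes were called at an adjusted p under 0.05 and 32.9% were called higher. GLS2 and PRODH would not have met the filter on low counts without the p53-WT libraries. GLS2 reached its level in 2 of 3 p53-null libraries. PRODH reached it in 0 of 3, so PRODH had to differ. Neither gene is given weight in that count. The other 8 genes met the filter in every p53-null library, and all 8 rose. Their median log2 fold change was 3.58 against -0.01 over all genes, and 7 of the 8 rose by more than 1 on the log2 scale, against 17.6% of all genes called higher by that much. All 10 were chosen as described p53 targets, with earlier results of these data known. The contrast with all genes is therefore not independent support. The genes fell into a group with changes of 8-fold and more (TIGAR, FDXR, GLS2, TP53I3, ACER2, PRODH and PANK1) and a group with small changes (ALDH4A1, FUCA1 and SCO2). The libraries of the groups did not overlap for 7 of those 8 genes and for 69.9% of all genes. In bulk RNA, more expressing cells and more RNA per cell cannot be told apart.

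The quinone oxidoreductase TP53I3 had the largest change. Its levels were 17.998, 13.6 and 14.6 CPM in the p53-null libraries and 1470, 1134 and 1165 CPM in the p53-WT libraries. The groups were far apart, and the change was 81.4-fold (95% interval 61.9 to 107.0), or 6.35 ± 0.18 on the log2 scale (SE, adjusted p = 7.38e-09). FDXR, the ferredoxin reductase, had 12.8, 12.7 and 12.5 CPM without p53 and 603, 473 and 517 CPM with it. The p53-null libraries were close together and far under the p53-WT libraries, and the change was 41.9-fold (33.9 to 51.7; log2 fold change 5.39 ± 0.14, adjusted p = 5.20e-09). SCO2, the chaperone of cytochrome c oxidase, had the smallest change of the 10. Its levels were 17.3, 13.1 and 14.9 CPM in p53-null cells and 24.9, 16.4 and 20.3 CPM in p53-WT cells. The lowest p53-WT library lay below the highest p53-null library, and the log2 fold change was 0.44 ± 0.17 (adjusted p = 0.0393).

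The genes of glutamine and proline use split by size. GLS2 had 0.92, 0.66 and 0.39 CPM in p53-null cells and 48.4, 34.1 and 34.6 CPM in p53-WT cells. It was nearly silent without p53, with 2 of 3 p53-null libraries at the filter level of 0.468 CPM, and the fitted change was 59.0-fold (39.6 to 87.8). PRODH was lower still, with 3, 1 and 6 counts in the p53-null libraries and 243, 189 and 158 counts in the p53-WT libraries. No p53-null library reached the filter level, so PRODH was tested only because it was high with p53-WT and had to differ there. The ratio of the summed, scaled counts was 59.2 (95% counting interval 32.0 to 124), and the interval covers counting error only. ALDH4A1, which takes up the product of PRODH, was well expressed without p53, at 28.3, 28.2 and 30.6 CPM, and reached 86.9, 72.5 and 79.1 CPM with p53-WT. The groups did not overlap, but the change was only 2.74-fold (2.31 to 3.24; log2 fold change 1.45 ± 0.11, adjusted p = 1.69e-06).

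TIGAR, which acts on glycolysis, had 48.5, 40.0 and 38.0 CPM in p53-null cells and 329, 376 and 367 CPM in p53-WT cells, an 8.48-fold change (6.95 to 10.3; log2 fold change 3.08 ± 0.13, adjusted p = 3.63e-08). Its p53-WT libraries all lay far above its p53-null libraries. PANK1, the entry to coenzyme A synthesis, had 5.08, 6.06 and 5.52 CPM without p53 and 94.9, 119 and 118 CPM with it, a 19.9-fold change (15.9 to 24.8; log2 fold change 4.31 ± 0.14, adjusted p = 1.29e-08). The Golgi ceramidase ACER2 had 2.08, 1.94 and 2.02 CPM without p53 and 35.7, 32.7 and 33.8 CPM with it, a 16.9-fold change (13.9 to 20.4; log2 fold change 4.08 ± 0.12, adjusted p = 9.79e-09). The spread within either ACER2 group was small beside the gap between them. The fucosidase FUCA1 had 14.4, 12.8 and 14.2 CPM without p53 and 29.0, 26.8 and 28.6 CPM with it. Its groups did not overlap, and its change was 2.04-fold (1.73 to 2.40; log2 fold change 1.03 ± 0.10, adjusted p = 1.55e-05).

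Of the 8 genes that met the filter without p53, 7 were called in all 17 alternative settings and left-out libraries. The rise of SCO2 was called in 11 of 16, and it was not called without p53-null replicate 2 (log2 fold change 0.36, adjusted p = 0.125), p53-null replicate 3 (0.44, 0.0898), p53-WT replicate 1 (0.28, 0.120) or p53-WT replicate 3 (0.45, 0.0713). Without the first library of both groups, those 8 genes all rose. SCO2 also overlaps other genes: TYMP lies on its strand (5 to 11 counts in Saos-2) and NCAPH2 on the other (1211 to 1778 counts). Overlap is not particular to SCO2. TIGAR and GLS2 overlap a gene on their own strand, and ALDH4A1 and PANK1 overlap microRNA genes there. TIGAR, GLS2, TP53I3 and PRODH overlap genes on the opposite strand. The counts of those genes are not given here. Whether the counting used strand is not given in the sources used here.

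**Figure D2:**
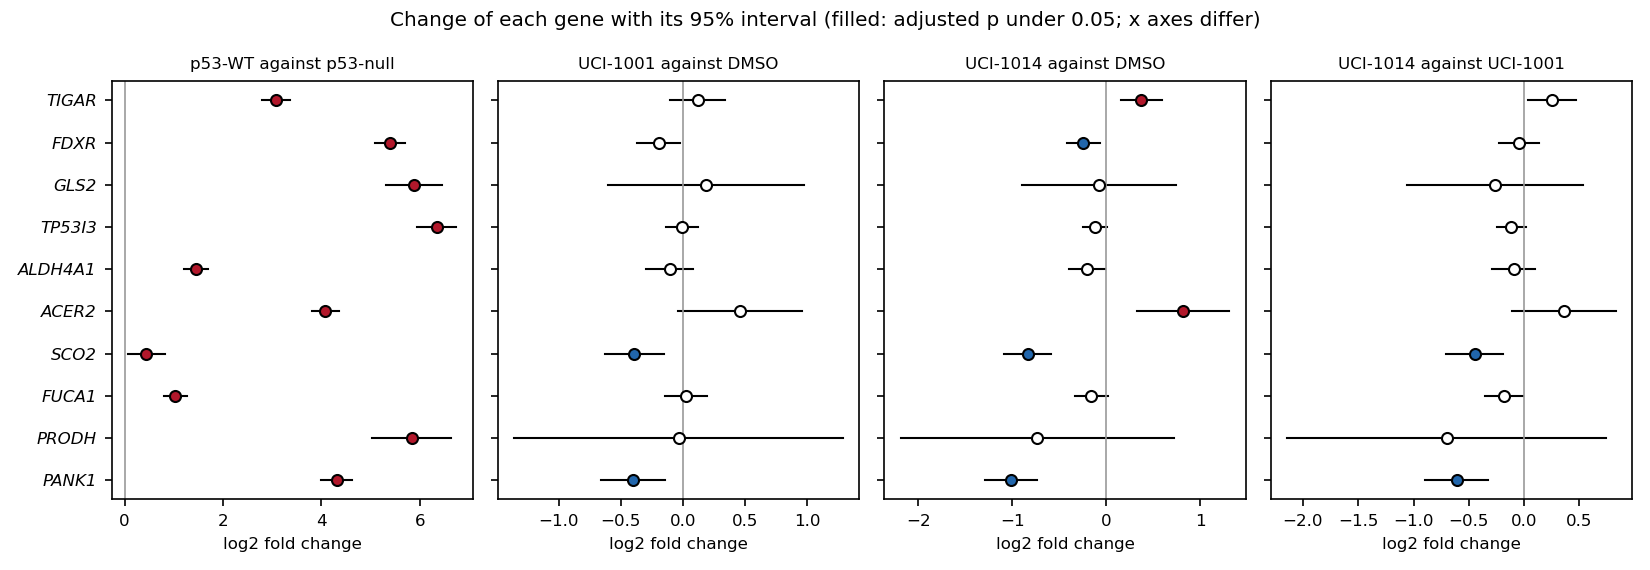
Each panel is 1 comparison, with the log2 fold change of each gene on the x axis and its 95% interval as a line; filled points were called at an adjusted p under 0.05 (red higher, blue lower), and the x axes differ. The p53-WT panel lies wholly to the right of 0, from 0.44 for SCO2 to 6.35 for TP53I3, while the compound panels scatter around 0 with only SCO2 and PANK1 called lower in all 3.

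Levels of different genes can be compared only per transcript length, for which the TPM values (estimated counts divided by transcript length and set to the same total in each library) of the transcript files were summed by gene. In p53-WT cells the order ran from TP53I3 (1098 ± 40 TPM, SD, n = 3) through FDXR (383 ± 16), TIGAR (249 ± 27), PANK1 (54.5 ± 14.1), ALDH4A1 (34.6 ± 1.7), SCO2 (29.9 ± 3.6), GLS2 (21.6 ± 1.4), ACER2 (19.6 ± 1.5) and FUCA1 (17.9 ± 1.7) to PRODH (6.35 ± 0.94). Among neighbours in that order, GLS2 overlapped ACER2 and ACER2 overlapped FUCA1. In p53-null cells TIGAR led (35.0 ± 2.6 TPM), followed by SCO2 (25.9 ± 1.6), and ALDH4A1 (15.8 ± 0.7) and TP53I3 (15.8 ± 0.9) could not be ordered. At the low end were ACER2 (1.35 ± 0.07), GLS2 (0.50 ± 0.11) and PRODH (0.055 ± 0.029).

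The 10 genes were not silent in TOV-112D cells treated with DMSO only. TP53I3 led (91.1 and 94.3 TPM), followed by SCO2 (33.9 and 35.3 TPM), FUCA1 (21.8 and 24.0 TPM) and TIGAR (16.9 and 21.4 TPM), and TIGAR overlapped FDXR (18.7 and 17.0 TPM). ALDH4A1 (11.8 in both libraries) and PANK1 (10.9 and 11.98 TPM) overlapped, as did GLS2 (1.31 and 1.83 TPM) and ACER2 (1.59 and 1.39 TPM), and PRODH was last (0.76 and 0.96 TPM). TP53I3 was thus at 5.86 times its level in p53-null Saos-2 cells but at 8.45% of its level in p53-WT cells. SCO2 and FUCA1 differed from the rest: their mean TPM in DMSO was 116% and 128% of that in p53-WT Saos-2 cells. For TIGAR and ALDH4A1 the DMSO level was below that of p53-null Saos-2 cells, at 0.547 and 0.748 times. These ratios compare different cell lines, so line, genotype and time cannot be told apart, and no test was made.

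**Figure D3:**
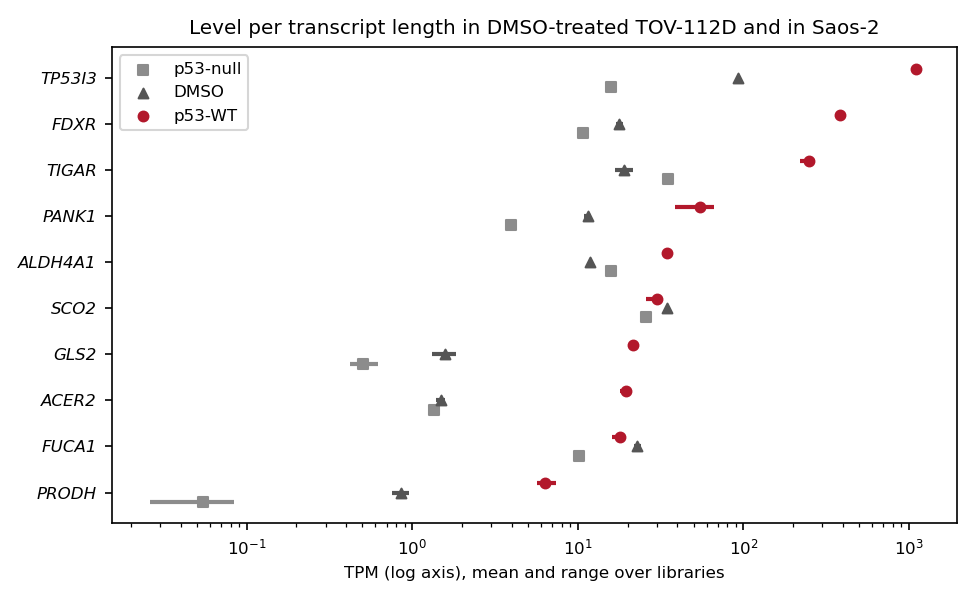
Points are the mean TPM of each gene on a log axis, with lines from the lowest to the highest library, for DMSO-treated TOV-112D (2 libraries) and for p53-null and p53-WT Saos-2 (3 libraries each). TP53I3 reaches 1098 TPM with p53-WT; for SCO2 and FUCA1 the DMSO point lies to the right of the p53-WT point.

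UCI-1001 was compared with DMSO to ask whether it moves these genes in cells with mutant p53. None of the 10 rose, and 2 fell, where 13.0% of all tested genes were called, 7.75% higher and 5.22% lower. At an unadjusted p under 0.05, 3 of the 10 passed, all of them lower (SCO2, PANK1 and FDXR), and DESeq2 called none. The median log2 fold change of the 10 was -0.02, against -0.00 over all genes. In 4 of the 10 genes the groups did not overlap, against 57.1% of all genes. None of the 10 was called with a change above 1 on the log2 scale in either direction, where 1.15% of all genes were higher and 0.160% lower by that much.

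SCO2, the copper chaperone, had 16.7 and 17.2 CPM in the DMSO libraries and 13.8 and 11.99 CPM with UCI-1001. Both treated libraries lay below both DMSO libraries, and the log2 fold change was -0.39 ± 0.11 (adjusted p = 0.0398). PANK1, the pantothenate kinase, had 14.7 and 14.3 CPM in DMSO and 10.7 and 11.3 CPM with UCI-1001. It was lower in both treated libraries, with a log2 fold change of -0.40 ± 0.12 (adjusted p = 0.0487). FDXR (18.9 and 17.9 CPM in DMSO, 16.05 and 16.11 with UCI-1001) was lower in both libraries too, but its log2 fold change of -0.19 ± 0.08 was not called (adjusted p = 0.139). ACER2 (2.06 and 1.84 CPM in DMSO, 2.72 and 2.66 with UCI-1001) was higher in both, and its log2 fold change of 0.46 ± 0.22 was not called either (adjusted p = 0.220).

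For the remaining genes the intervals show what was not detectable. TP53I3 had 72.5 and 68.3 CPM in DMSO and 72.9 and 67.4 CPM with UCI-1001, and the 95% interval of its log2 fold change ran from -0.13 to 0.12. That is a narrow interval around 0. Wild-type p53 moved the gene by 6.35 on the same scale, but in another cell line, Saos-2, with a 16 h label. The starting level differed too, at a mean of 15.8 TPM in p53-null Saos-2 and 92.7 TPM in DMSO-treated TOV-112D. The intervals of FUCA1 (-0.14 to 0.19), ALDH4A1 (-0.30 to 0.08) and TIGAR (-0.10 to 0.34) were wider than that of TP53I3. The TIGAR interval takes in a rise nearly as large as the 0.37 called for TIGAR with UCI-1014. GLS2 had only 20 to 30 counts a library and an interval of -0.60 to 0.97, and PRODH, with 11 and 15 counts in DMSO and 21 and 6 with UCI-1001, had one of -1.36 to 1.29, so little can be said of either at this depth.

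Both calls were near the threshold, although PANK1 kept a log2 fold change of -0.44 to -0.36 whichever library was left out. SCO2 was called in 8 of 15 alternatives and PANK1 in 7 of 16. SCO2 was not called without DMSO replicate 1 (log2 fold change -0.41, adjusted p = 0.159), DMSO replicate 2 (-0.37, 0.188) or UCI-1001 replicate 2 (-0.29, 0.215). PANK1 was not called without DMSO replicate 1 (-0.38, 0.224), DMSO replicate 2 (-0.42, 0.171), UCI-1001 replicate 1 (-0.36, 0.163) or UCI-1001 replicate 2 (-0.44, 0.124).

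UCI-1014 was compared with the same DMSO libraries, so its values and those of UCI-1001 share their control. With UCI-1014, 2 of the 10 genes rose (TIGAR and ACER2), 3 fell (FDXR, SCO2 and PANK1) and 5 were not called, where 44.2% of all tested genes were called, 22.7% higher and 21.5% lower. The median log2 fold change of the 10 was -0.18 against -0.01 over all genes. The groups did not overlap in 9 of the 10 genes, against 72.8% of all genes. The directions were mixed, and the number called was near the share of all genes. PANK1 alone was called past 1 on the log2 scale, where 4.54% of all genes were higher and 0.921% lower by that much. Its log2 fold change was -1.01 with an interval of -1.29 to -0.74, so a change of that size is not established.

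The 2 genes that rose were those of glycolysis control and ceramide turnover. TIGAR had 27.8 and 27.4 CPM in DMSO and 38.2 and 33.4 CPM with UCI-1014. Both treated libraries were above both controls, a log2 fold change of 0.37 ± 0.10 (adjusted p = 0.0112). Per transcript length the TIGAR groups overlapped, with 16.9 and 21.4 TPM in DMSO and 27.2 and 20.9 TPM with UCI-1014. ACER2 was at the low end of expression, with 40 and 34 counts in DMSO and 54 and 71 counts with UCI-1014, or 2.06 and 1.84 CPM against 3.23 and 3.64 CPM. It was higher in both treated libraries, with a log2 fold change of 0.82 ± 0.22 (adjusted p = 0.0122). With wild-type p53 the same genes had changed by 3.08 and 4.08 on the log2 scale.

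PANK1 and SCO2 fell most. PANK1 went from 14.7 and 14.3 CPM in DMSO to 8.03 and 6.41 CPM with UCI-1014. Its treated libraries lay well under the controls, at 0.496 times their level by the fitted fold (log2 fold change -1.01 ± 0.12, adjusted p = 9.62e-05). SCO2 went from 16.7 and 17.2 CPM to 8.75 and 10.2 CPM, 0.560 times the control level (log2 fold change -0.84 ± 0.11, adjusted p = 0.000188). Both treated libraries were again below both controls. FDXR, with 18.9 and 17.9 CPM in DMSO and 15.63 and 15.49 CPM with UCI-1014, fell by less (log2 fold change -0.24 ± 0.08, adjusted p = 0.0314). All 3 of these genes had risen with wild-type p53. TYMP, which overlaps SCO2 on the same strand, had 68 and 54 counts (DMSO), 77 and 70 counts (UCI-1001) and 35 and 29 counts (UCI-1014), so its counts were lower beside those of SCO2 with UCI-1014 but not with UCI-1001, and its part in the SCO2 result was not tested.

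The other genes had lower means with UCI-1014 and were not called. TP53I3 had 63.3 and 66.2 CPM with UCI-1014, below both DMSO libraries, with a log2 fold change of -0.12 ± 0.06 (adjusted p = 0.122) and an interval of -0.25 to 0.01. ALDH4A1 (16.2 and 16.0 CPM; log2 fold change -0.20 ± 0.09, adjusted p = 0.0826) and FUCA1 (24.7 and 24.1 CPM; -0.16 ± 0.08, adjusted p = 0.127) were likewise below both DMSO libraries. GLS2 (interval -0.89 to 0.74) and PRODH (-2.18 to 0.72) had too few counts to be placed.

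The falls of PANK1 and SCO2 were called in all 16 and all 15 alternatives. The others were less stable. TIGAR was called in 10 of 16, and not without DMSO replicate 1 (log2 fold change 0.38, adjusted p = 0.0544), DMSO replicate 2 (0.36, 0.0643) or UCI-1014 replicate 1 (0.28, 0.0874). ACER2 was called in 13 of 16, and not without DMSO replicate 2 (0.74, 0.0696) or UCI-1014 replicate 2 (0.72, 0.0693). FDXR was called in 8 of 16, and not without DMSO replicate 1 (-0.21, 0.174), DMSO replicate 2 (-0.28, 0.0663), UCI-1014 replicate 1 (-0.25, 0.0810) or UCI-1014 replicate 2 (-0.24, 0.0976). With scaling by library totals only, the median of all genes moved by -0.15 on the log2 scale, the rise of TIGAR was not called (0.23, adjusted p = 0.0680), and TP53I3, ALDH4A1 and FUCA1 were called lower.

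The compounds, the only such pair in these libraries, were then compared with each other at 3 h, with the caution that equal doses are not established. The p-values are adjusted over all genes. PANK1 and SCO2 were lower with UCI-1014 than with UCI-1001, and the other 8 genes were not called, where 27.7% of all tested genes were called, 16.2% higher and 11.5% lower. The median log2 difference of the 10 was -0.15, against -0.00 over all genes, and the groups did not overlap in 8 of the 10 genes and in 63.0% of all genes. None of the 10 was called past 1 on the log2 scale, where 1.53% of all genes were higher and 0.240% lower by that much. PANK1 had 10.7 and 11.3 CPM with UCI-1001 and 8.03 and 6.41 CPM with UCI-1014, a log2 difference of -0.61 ± 0.13 (adjusted p = 0.00549). SCO2 had 13.8 and 11.99 CPM against 8.75 and 10.2 CPM, a log2 difference of -0.45 ± 0.12 (adjusted p = 0.0166). In both genes each UCI-1014 library lay below each UCI-1001 library.

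For the 8 genes that were not called, the intervals bound the difference between the compounds. FDXR was closest to 0, at a log2 difference of -0.05 with an interval of -0.23 to 0.13. ALDH4A1 (-0.29 to 0.10), TP53I3 (-0.25 to 0.01) and FUCA1 (-0.36 to -0.01) also had narrow intervals, and that of FUCA1 lay just under 0 although its adjusted p was 0.108. TIGAR, with 27.1 and 33.0 CPM against 38.2 and 33.4 CPM, was higher with UCI-1014 in each library, but its log2 difference of 0.25 ± 0.10 was not called (interval 0.04 to 0.47, adjusted p = 0.0820). ACER2 (2.72 and 2.66 CPM against 3.23 and 3.64 CPM) likewise lay higher with UCI-1014 at 0.36 ± 0.21 (interval -0.11 to 0.83, adjusted p = 0.246). GLS2 (-1.06 to 0.54) and PRODH (-2.14 to 0.74) could not be placed. PANK1 was called in 15 of 16 alternatives and SCO2 in 12 of 15. SCO2 was not called without UCI-1001 replicate 1 (-0.35, adjusted p = 0.107) or UCI-1014 replicate 1 (-0.35, 0.0954), and TIGAR was called without UCI-1001 replicate 2 (0.40, adjusted p = 0.0179).

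The transcript files show which RNAs of a gene were counted. PANK1 is on the minus strand of chromosome 10, and its transcript PANK1-203, which starts 1355 bases downstream of the canonical PANK1-201, held most of the PANK1 signal in Saos-2. PANK1-203 was at 2.18 ± 0.80 TPM in p53-null and 40.1 ± 9.97 TPM in p53-WT cells (SD, n = 3), or 55.2% and 73.7% of the gene. In TOV-112D it was at 5.67 and 5.71 TPM (DMSO), 3.77 and 3.96 TPM (UCI-1001) and 1.90 and 2.14 TPM (UCI-1014). The libraries of a group lay close together and the groups were well apart. The canonical PANK1-201 was low in TOV-112D, with means of 0.96 TPM (DMSO), 0.90 TPM (UCI-1001) and 0.56 TPM (UCI-1014), and it was at 0.20 TPM in p53-null and 3.75 TPM in p53-WT Saos-2 cells. The short PANK1-204 (means 2.43, 1.63 and 1.96 TPM) and PANK1-205 (means 2.38, 2.22 and 1.49 TPM) overlapped between the TOV-112D groups. For the gene as a whole the TPM of UCI-1001 (7.72 and 9.50) and UCI-1014 (8.37 and 4.48) overlapped as well, both below DMSO (10.9 and 11.98).

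The TIGAR signal was divided between the full-length TIGAR-201 and the short TIGAR-202, which starts 14320 bases downstream within the gene. In TOV-112D, TIGAR-201 was at 15.6 and 16.9 TPM (DMSO), 16.4 and 19.5 TPM (UCI-1001) and 19.2 and 21.9 TPM (UCI-1014). TIGAR-202 scattered from 0 to 5.83 TPM within DMSO alone. In Saos-2 both were higher with p53-WT, TIGAR-201 at 151 against 20.3 TPM and TIGAR-202 at 96.8 against 14.7 TPM by group mean. In p53-WT cells GLS2-203, which starts 32 bases downstream of GLS2-201, was the main transcript. It was at 10.4 ± 1.4 TPM, beside 7.85 ± 0.62 TPM for GLS2-201. In p53-null cells GLS2 had only 9 to 20 counts a library. There GLS2-203 (0 to 0.25 TPM) and GLS2-201 (0.08 to 0.29 TPM) overlapped and could not be ordered. GLS2-203 was listed at 0 in all 6 TOV-112D libraries. TP53I3 was carried by TP53I3-202, which starts 381 bases upstream of the canonical start, at 80.1% of the gene in p53-WT and 60.4% in DMSO. Transcript values are estimates that divide shared reads, and they were not tested.

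**Figure D4:**
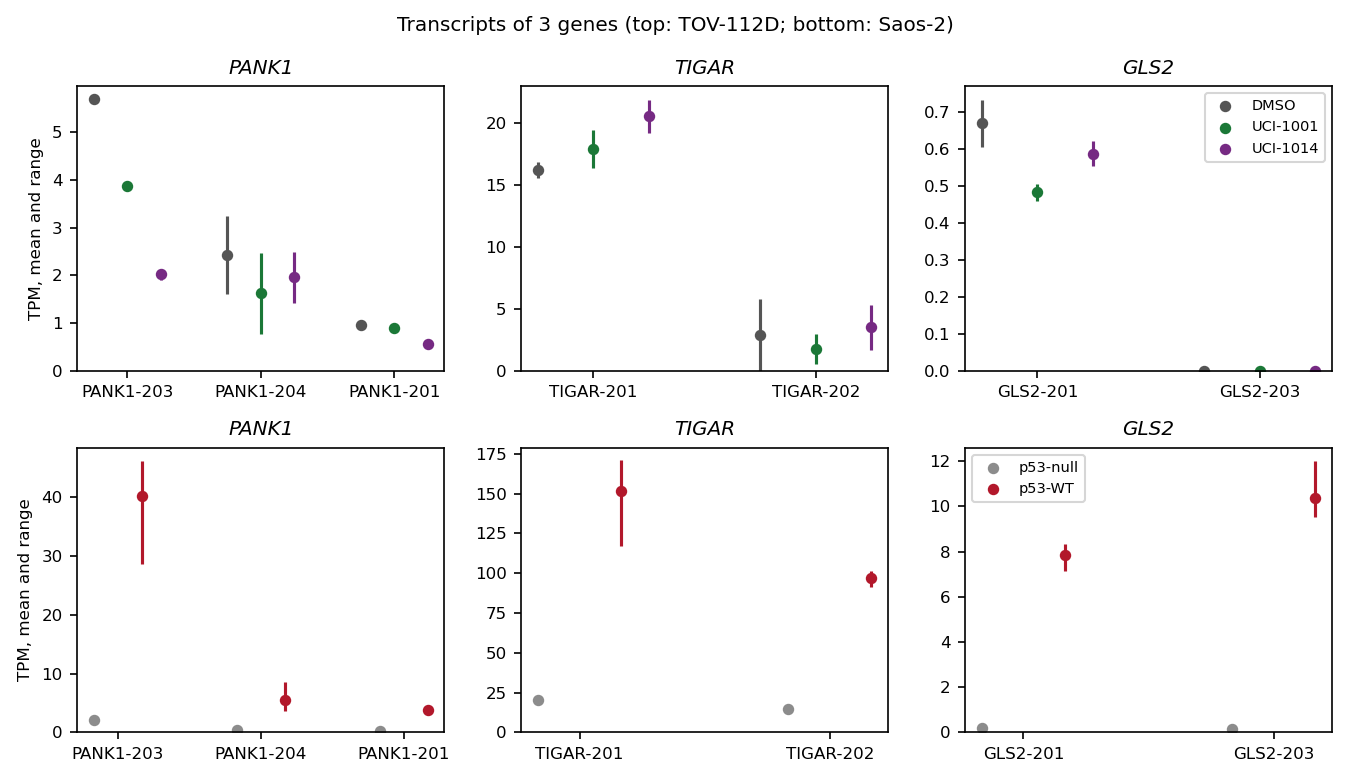
Points are the mean TPM of single transcripts of PANK1, TIGAR and GLS2, with lines from the lowest to the highest library; the upper row is TOV-112D and the lower row Saos-2, with separate linear axes from 0. PANK1-203 steps down from 5.69 to 3.86 to 2.02 TPM over DMSO, UCI-1001 and UCI-1014, and GLS2-203 is at 0 in TOV-112D and at 10.4 TPM in p53-WT cells.

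The pathways around the 10 genes were described with 9 lists of 121 genes in all. With p53-WT, 42 of the 113 list genes tested rose (37.2%) and 37 fell (32.7%), near the 32.9% and 32.1% of all genes, and their median was -0.02 on the log2 scale. For UCI-1001, 11 of 114 rose (9.65%, against 7.75% of all genes) and none fell (against 5.22%). With UCI-1014, 29 rose (25.4%, against 22.7%) and 31 fell (27.2%, against 21.5%). Between the compounds 25 were higher (21.9%, against 16.2%) and 22 lower (19.3%, against 11.5%) with UCI-1014. The counts by pathway are read against the same shares of all genes.

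Other metabolic genes linked to p53 were the list closest to the 10 genes. With p53-WT 13 of its 18 tested genes rose and 4 fell, with a median of 2.12 on the log2 scale. The largest rises were those of TP53INP1, an autophagy regulator (5.74 ± 0.21), and DHRS3, a retinaldehyde reductase (5.62 ± 0.28), whose p53-null mean of 0.27 CPM lay under the filter level, so that it too entered through p53-WT. The largest falls were those of the hexokinase HK2 (-1.56 ± 0.13) and the cystine transporter SLC7A11 (-0.68 ± 0.23). With UCI-1001, 4 of 19 rose and none fell, led by SESN2 (2.01 ± 0.15) and DDIT4 (1.27 ± 0.22), both inhibitors of mTORC1 signalling. SESN2 and DDIT4 had also risen with p53-WT (3.11 ± 0.12 and 3.90 ± 0.12). So had GAMT (3.61 ± 0.15) and SESN1 (4.40 ± 0.12), the latter named after its values were seen. Neither GAMT (0.01 ± 0.07) nor SESN1 (-0.08 ± 0.12) was called with UCI-1001. With UCI-1014, 9 rose and 4 fell. SESN2 rose by 4.31 ± 0.12 and DDIT4 by 2.32 ± 0.21, and DHRS3 (-1.20 ± 0.33) and HK2 (-0.30 ± 0.07) fell. SESN2 thus moved further with UCI-1014 than any of the 10 genes did. SLC7A11, lower with p53-WT, rose with both compounds, by 0.59 ± 0.04 with UCI-1001 and 1.07 ± 0.04 with UCI-1014.

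The partners of TIGAR make and use fructose-2,6-bisphosphate and run the pentose phosphate pathway. With p53-WT 7 of 13 rose and 2 fell, with TKT, the transketolase, at 1.501 ± 0.113 and the kinase PFKFB4 at 1.76 ± 0.15, while the kinase PFKFB3 was not called (0.24 ± 0.10, adjusted p = 0.0653). With UCI-1001 none of the 13 was called. With UCI-1014 1 rose, PFKFB3 (0.34 ± 0.04), and 8 fell, among them the dehydrogenase PGD (-0.25 ± 0.04) and PFKP (-0.22 ± 0.04). Among the glutamine and proline enzymes, 1 rose with p53-WT (GPT2, 1.40 ± 0.11) and 6 of 11 fell, including the proline-making PYCR1 (-1.26 ± 0.14). The aspartate transaminase GOT1 rose with UCI-1001 (0.45 ± 0.06), the only gene of that list to do so, and with UCI-1014 (1.58 ± 0.06).

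The electron carriers served by FDXR rose with p53-WT, FDX1 by 1.44 ± 0.13 and FDX2 by 1.68 ± 0.17, in a list where 5 of 13 rose and 3 fell. The iron-sulfur scaffold ISCU had the largest rise of that list, 2.14 ± 0.11. With UCI-1014, FDX1 rose (0.40 ± 0.06) and 5 of 13 fell, among them LYRM4 (-0.44 ± 0.10), and with UCI-1001 none of 13 was called. Cytochrome c oxidase assembly, the pathway of SCO2, had 3 of 15 higher and 6 lower with p53-WT. SCO1, the paralog of SCO2, fell by 0.76 on the log2 scale (SE 0.10) there, and SURF1 rose by 1.61 ± 0.13. With UCI-1014 none of these 15 genes rose and 8 fell, among them PET100 (-0.88 ± 0.11), COA3 (-0.87 ± 0.08) and SCO1 (-0.30 ± 0.05), beside SCO2 itself at -0.84. With UCI-1001 none of the 15 was called, and SCO1 stood at -0.08 ± 0.05 (adjusted p = 0.297).

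Ceramide and sphingolipid enzymes, the neighbours of ACER2, had 5 of 15 higher and 5 lower with p53-WT. CERS4, a ceramide synthase, rose by 3.04 ± 0.20, and DEGS1 fell (-1.34 ± 0.11). With UCI-1014 6 of 15 rose and none fell, led by the sphingomyelin synthases SGMS2 (2.44 ± 0.10) and SGMS1 (0.65 ± 0.08), and with UCI-1001 3 rose, among them SGMS2 (0.78 ± 0.11). Of the other ceramidases, with UCI-1014 ACER3 was at -0.03 ± 0.07 (adjusted p = 0.728) and ASAH1 at -0.04 ± 0.05 (adjusted p = 0.610). ASAH2, under 1 CPM on average and named after its values were seen, was at 0.56 ± 0.37 (adjusted p = 0.253) with UCI-1014 and was called higher with UCI-1014 than with UCI-1001 (1.31 ± 0.40, adjusted p = 0.0329). Of the lysosomal glycosidases around FUCA1, 5 of 14 rose and 6 fell with p53-WT, with IDUA at 4.57 ± 0.25 and the plasma fucosidase FUCA2 at -1.04 ± 0.09, opposite to FUCA1. With UCI-1014, 5 rose and 1 fell, led by the galactosidase GLA (1.67 ± 0.06), and FUCA2 was not called (0.21 ± 0.17, adjusted p = 0.366).

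In coenzyme A synthesis, 1 of the 6 other genes rose with p53-WT (PPCS, 0.52 ± 0.14) and 3 fell, including PANK3 (-0.50 ± 0.19, adjusted p = 0.0418). PANK3 rose with UCI-1001 (0.24 ± 0.05, adjusted p = 0.0148) and with UCI-1014 (0.46 ± 0.05, adjusted p = 4.91e-05), while PANK1 fell, and PANK2 was not called with either (-0.02 ± 0.07 and 0.03 ± 0.07, adjusted p = 0.899 and 0.781). Of the quinone oxidoreductases near TP53I3, 2 of 8 rose and 2 fell with p53-WT, with NQO1 at 0.67 ± 0.11 and CRYZ at -0.66 ± 0.13. With UCI-1014, NQO1 (0.34 ± 0.06) and NQO2 (0.57 ± 0.18) rose and none fell, and none of the 8 was called with UCI-1001.

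**Figure D5:**
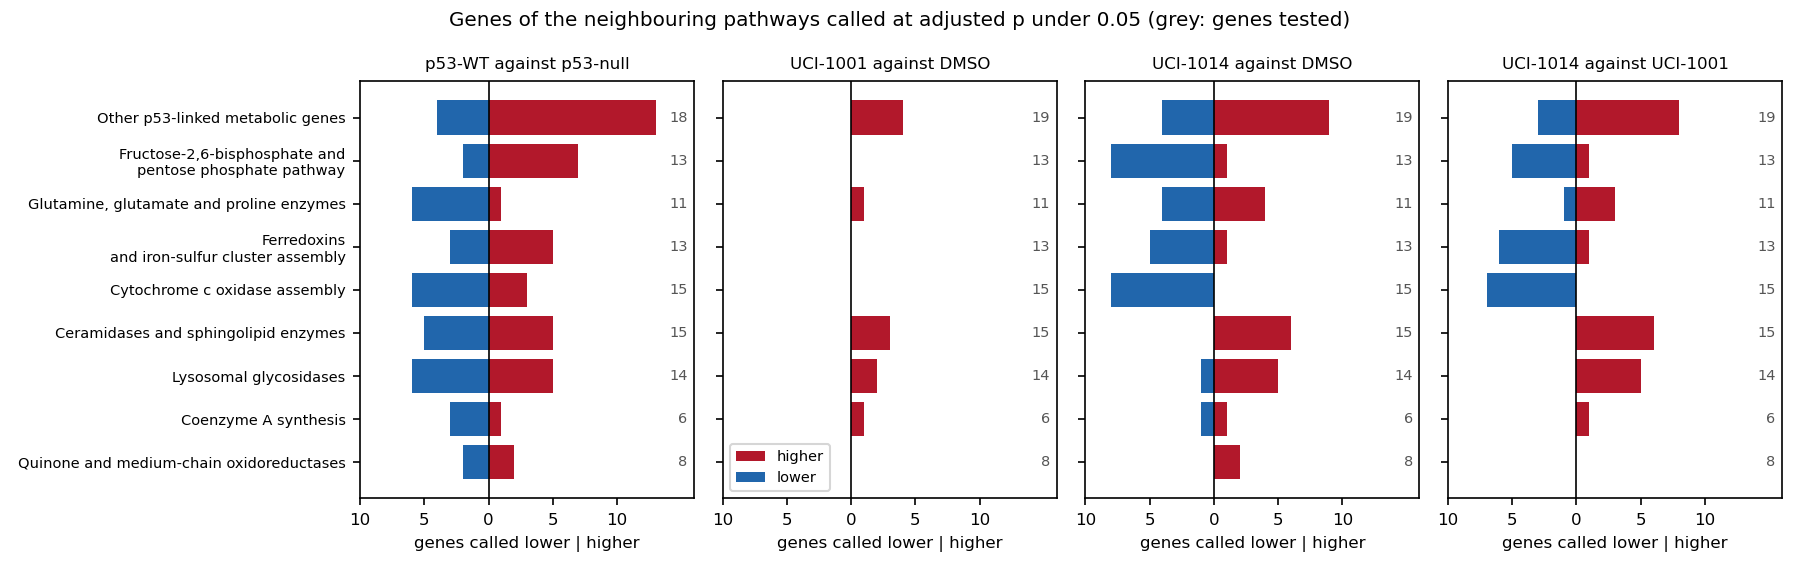
Bars count the genes of each neighbouring pathway called higher (red, to the right) or lower (blue, to the left) at an adjusted p under 0.05 in each comparison; grey numbers are the genes tested. The list of other p53-linked metabolic genes leads to the right with p53-WT (13 of 18), and cytochrome c oxidase assembly lies to the left with UCI-1014 (8 of 15) and is empty with UCI-1001.

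The genes whose pattern was most like the mean of the 10 were sought among 13214 genes by the root mean square difference of log2 CPM over all 12 libraries, after centring on DMSO and on p53-null. Among the nearest were GAMT (0.0927), ANXA4 (0.129), NADSYN1 (0.129) and PIDD1 (0.133). GAMT makes creatine and is one of the list genes above. Of the 10 genes, TIGAR (0.426), ACER2 (0.488) and PANK1 (0.491) lay nearest their own mean, and SCO2 (1.67) lay farthest. Each gene is part of that mean, as are GLS2 and PRODH, which met the Saos-2 filter only through p53-WT. The large p53-WT changes weigh most in these distances. PANK1 lay near the mean although its log2 fold change with UCI-1014 was -1.01.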

How the data were processed

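RNA from 12 libraries was sequenced as total RNA. The authors pseudoaligned reads with kallisto 0.48.0 to GRCh38, and the deposited transcript files hold estimated counts and TPM. The authors summed the estimated counts by Ensembl gene into the deposited table of whole-number gene counts, which they tested with DESeq2 1.38.3. Whether strand was used is not given in the sources used here. Library totals set the counting precision, and intervals cover 95%.

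The gene counts were tested here with edgeR 4.0.16 in R 4.3.3 (TMM scaling, filterByExpr with a minimum count of 10, quasi-likelihood test), in 1 fit per cell line, with Benjamini-Hochberg adjustment over all genes tested and calls at an adjusted p under 0.05. The scripts were tested on simulated data. CPM values were scaled within each cell line. TPM values were summed by gene through GENCODE 44. Alternatives, DESeq2 1.42.0 among them, are given in the closing section.

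The 10 genes and the 9 pathway lists were chosen with earlier results of these data known. All 10 genes were named. List genes were named as the 2 largest rises and falls among those called, with groups that did not overlap and a mean of at least 1 CPM, plus functional partners of the 10. The 5 nearest genes and 3 check genes were added. Some genes that this rule takes are not reported here. Replicate numbers were not used to pair the libraries in the main fits.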

Additional observations from a re-analysis of the deposited data

How the results depend on the processing

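With p53-WT, 9 or 10 of the 10 genes (GLS2 and PRODH, tested only through p53-WT, included) were called under every alternative and left-out library. For UCI-1001 (2 called) the number was 1 with RLE scaling and with the unnamed SCO2 identifier added (an alternative chosen after seeing the data), and 0 with DESeq2, with all 12 libraries in 1 fit, with an effective length offset (9 genes entered, without SCO2), at a log2 change above 1 and at an adjusted p under 0.001. For UCI-1014 (5 called) it was 3 with DESeq2 and with all 12 libraries, 2 with the length offset, 1 at a log2 change above 1 and 2 at an adjusted p under 0.001. Between the compounds (2 called) it was 4 with library totals, 1 with all 12 libraries, and 0 with the length offset and under both stricter thresholds. Leaving out 1 library gave 9 to 10, 0 to 2, 2 to 5 and 1 to 3 called. With 1 library left in a group, that library is assumed to vary like the others. The causes were not tested.

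Same-numbered libraries deviated together weakly at most (correlations of 0.05 to 0.13 in Saos-2 and -0.13 to 0.05 in TOV-112D). Saos-2 pairs with different numbers ran from -0.155 to 0.120. Whether same-numbered Saos-2 libraries share a batch was not tested. With the replicate block none of the 10 genes was called for UCI-1001 (0, against 2), and the calls of the 10 in the other comparisons were 10, 5 and 2. Over all genes the block gave 10090, 1452, 6215 and 3648 calls, against 9801, 1943, 6627 and 4151. Crossing the UCI-1014 numbers, added after seeing the data, gave 4603 calls between the compounds.

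Signs turned only in genes that were not called. For UCI-1001, the log2 change of TP53I3 was 0.0030 with RLE and 0.0019 with DESeq2, FUCA1 was -0.00034 with all 12 libraries and PRODH 0.061 with the length offset, and FDXR was 0.0033 between the compounds with that offset. Leaving out 1 library, UCI-1001 values ran from -0.027 to 0.26 (TIGAR), -0.071 to 0.48 (GLS2), -0.059 to 0.050 (TP53I3), -0.061 to 0.11 (FUCA1) and -1.17 to 0.59 (PRODH). GLS2 ran from -0.50 to 0.23 with UCI-1014, and GLS2 from -0.69 to 0.042 and PRODH from -1.47 to 0.43 between the compounds.

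Over all genes, all 12 libraries in 1 fit gave 294, 3378 and 870 calls in the TOV-112D comparisons and the length offset 663, 3962 and 1954. Library totals shifted the median gene by -0.16 (p53-WT), -0.15 (UCI-1014) and -0.13 (between compounds). The split of calls then moved from 3409 higher and 3218 lower to 2396 and 5594 for UCI-1014, and from 2432 and 1719 to 1506 and 4409 between the compounds. Of the UCI-1001 calls, 59.8% were higher, against 83.7% with all 12 libraries and 70.3% with the length offset, and between the compounds 58.6%, against 70.7% with all 12 libraries.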
